A study of Homo sapiens with 8 samples.

Results

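Genes of potassium channels were described across 4 human cell lines whose RNA had been sequenced. They were the 94 rows, of 23615 listed gene symbols, whose symbol begins with KCN, goes on with letters and ends in a number. By symbol, 30 encode pore subunits of voltage-gated channels (KCNA, KCNB, KCNC, KCND, KCNH and KCNQ), 10 silent voltage-gated subunits (KCNF, KCNG, KCNS and KCNV), 16 inward rectifiers (KCNJ), 15 two-pore channels (KCNK), 12 calcium- or sodium-activated channels and their beta subunits (KCNM, KCNN, KCNT and KCNU), and 11 accessory subunits (KCNAB, KCNE and KCNIP). The lines were U937, a leukemic line, EaHy, an endothelial line, PC3M, a prostate cancer line grown as PC3M-LN4, and HEK293, an embryonic kidney line. None was treated or edited according to the labels, and each gave 2 libraries of total RNA depleted of ribosomal RNA, from cells collected in duplicate. The study looked for receptors of epoxyeicosatrienoic acids (EETs) by setting the 3 lines that bind them, U937, EaHy and PC3M, against HEK293, which does not. HEK293 was grown in DMEM and the other lines in RPMI, so line, binding class and medium cannot be told apart, and p-values measure only the spread between these duplicates, which may be technical.

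Potassium channels are membrane pores that let potassium leave the cell along its gradient and so hold the membrane potential negative. Voltage-gated channels open on depolarisation, inward rectifiers pass current best near or below the resting potential, two-pore channels carry leak current, and calcium-activated channels open when cytosolic calcium rises. In blood and endothelial cells a negative membrane potential favours calcium entry. In vessels, EETs released by the endothelium relax smooth muscle by opening the large-conductance calcium-activated (BK) channel, whose pore is encoded by KCNMA1.

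Values were FPKM (fragments scaled to transcript length and to the mapped fragments of a library), which can be compared between genes since they are per length, and the read depth is unknown. The sum of FPKM per library ran from 497389 to 1926028. EaHy replicate 2 and both PC3M libraries stood apart from the other 5: RMRP, a small noncoding RNA, was at 275616 to 506736 FPKM in them and at 12.3 to 1131 in the others. Of the 94 channel genes, 47, 41 and 26 were listed at 0 in EaHy replicate 2, PC3M replicate 1 and PC3M replicate 2, against 0, 31, 0, 22 and 9 in U937 replicates 1 and 2, EaHy replicate 1 and HEK293 replicates 1 and 2. Of all listed genes, 25.7% to 35.6% were at 0 in those 3 and 5.24% to 25.1% in the remaining 5. A value of 0 is therefore reported as listed, not as absence. Of 8 genes chosen as markers for each line, 7 myeloid genes were present in U937, 7 endothelial genes in EaHy and 7 neuronal or embryonic kidney genes in HEK293, where present means at least 0.5 FPKM in both libraries of a line. PC3M had 3 of 8 prostate and epithelial genes, EPCAM, KRT8 and KRT18, while KLK3 was not present in it.

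Most potassium channel genes were low or listed at 0. Of the 94, 48 were present in no line, and 2 were present in all 4: KCNC4, a voltage-gated pore subunit, and KCNG1, a silent subunit. Of all listed genes, 34.9% were present in no line and 33.7% in all 4. HEK293 had 30 channel genes present, U937 21, EaHy 10 and PC3M 9, while 58.1%, 51.5%, 47.6% and 39.8% of all listed genes were present in these lines. As shares of the 94, these counts were 31.9%, 22.3%, 10.6% and 9.57%, below the share of all genes in each line. The limit was not scaled to the library, although the upper quartile of tested genes ran from 4.05 FPKM in PC3M replicate 2 to 21.4 in HEK293 replicate 2. With a single library of a line enough, the counts were 42 in HEK293, 39 in U937, 33 in EaHy and 19 in PC3M, so the gap between HEK293 and both U937 and EaHy was smaller. By class, HEK293 had 11 of 30 voltage-gated pore genes against 6 in U937, 2 in EaHy and 1 in PC3M, and 6 of 16 inward rectifiers against 3, 2 and 2. Two-pore genes were present at 3 of 15 in PC3M, 2 in U937, 2 in HEK293 and 1 in EaHy. Accessory genes were present at 4 of 11 in U937 and in HEK293, 1 in PC3M and 0 in EaHy.

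**Figure D1:**
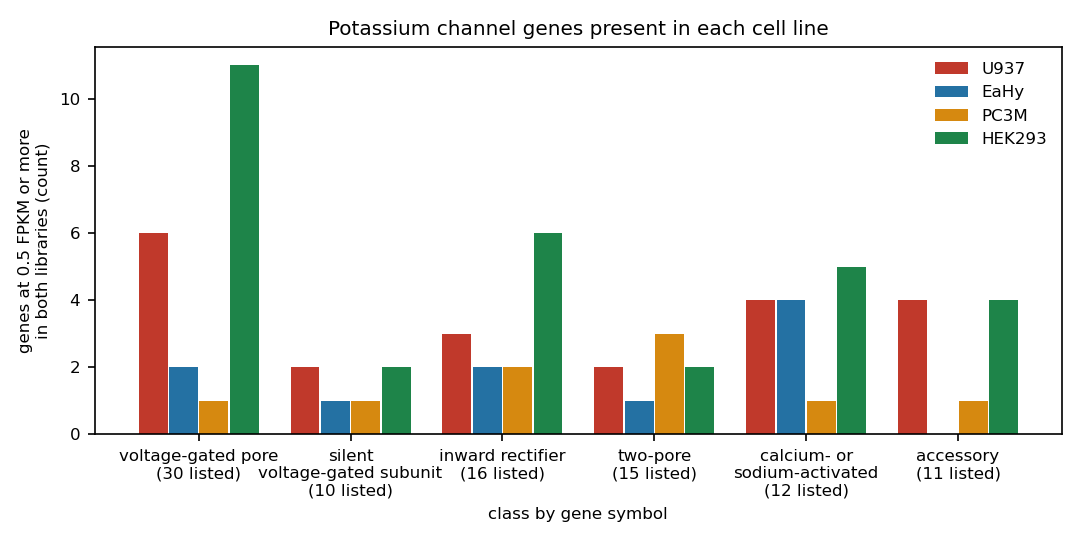
Number of potassium channel genes (vertical axis, count) at 0.5 FPKM or more in both libraries of a line, by class (horizontal axis, with the number listed) and line (colour). HEK293 holds 11 voltage-gated pore genes and PC3M 1, while calcium- or sodium-activated genes stand at 4 in U937, 4 in EaHy and 5 in HEK293.

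The study's contrast of the binding lines with HEK293 was applied to the channels, with the limit of 0.5 FPKM chosen here. Of the 94, 0 reached 0.5 FPKM in each of the 6 binding-line libraries with less in both HEK293 libraries, while 0.216% of all listed genes did. Beside so low a share, the count of 0 is not read as a trait of the channels. KCNN4, the intermediate-conductance calcium-activated channel, came closest: its value in PC3M replicate 2 was 0.462. In the other direction, 3 of 94 were present in both HEK293 libraries and under 0.5 FPKM in the other 6, against 2.53% of all listed genes. These were KCNC1, a fast voltage-gated channel of neurons, KCNN1, a small-conductance calcium-activated channel, and KCNT2, a sodium-activated channel.

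A total of 50 channel genes reached 0.5 FPKM in 2 or more of the 8 libraries and were tested on the log2(FPKM + 0.5) scale with limma, across 16295 genes. Since this limit keeps a low gene through the line in which it is high, counts over the 50 describe them and support nothing further. In the F test among the 4 lines 22 channel genes passed at an adjusted p under 0.05, while 33.2% of all tested genes passed. Against HEK293, 8 channel genes were higher and 8 lower in U937, where 4.47% of all tested genes were higher and 10.6% lower. In EaHy 4 were higher and 10 lower (all genes 4.55% and 9.8%), and in PC3M 3 were higher and 10 lower (2.39% and 25.3%). In either direction, 15.1%, 14.4% and 27.7% of all tested genes were called in these comparisons. Between the binding lines, U937 had 7 higher and 2 lower than EaHy (5.95% and 6.77%), and 12 higher and 6 lower than PC3M (17.2% and 4.57%), while EaHy had 2 higher and 2 lower than PC3M (6.28% and 1.44%), with 12.7%, 21.8% and 7.71% of all tested genes called in either direction. The shared HEK293 libraries enter the first 3 comparisons.

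The splits moved with scaling. The median log2 difference of all tested genes was -0.22, -0.67 and -1.26 in U937, EaHy and PC3M against HEK293, 0.38 and 0.94 in U937 against EaHy and PC3M, and 0.59 in EaHy against PC3M. The medians of the 50 channel genes were -0.14, -0.65, -0.89, 0.16, 0.65 and 0.43 in the same order. With upper-quartile scaling the split of higher and lower channel genes became 4 and 6 for EaHy and 6 and 6 for PC3M against HEK293, 9 and 9 for U937 against PC3M, and 2 and 6 for EaHy against PC3M. With quantile normalization it became 13 and 6, 5 and 5, and 7 and 4 for U937, EaHy and PC3M against HEK293, 12 and 9 for U937 against PC3M, and 3 and 7 for EaHy against PC3M. Leaving out 1 library moved the number called from 16 to between 10 and 18 for U937 against HEK293 and from 13 to between 4 and 18 for PC3M against HEK293. The low ends came without HEK293 replicate 2 in U937, and without PC3M replicate 2 or either HEK293 library in PC3M, where leaving out U937 replicate 1 gave 8. In EaHy the number went from 14 to 5 without HEK293 replicate 2, 7 without HEK293 replicate 1, and 9 without EaHy replicate 2 or either U937 library. In U937 against PC3M it went from 18 to 9 without either U937 library, to 12 without PC3M replicate 2 or either HEK293 library, and in U937 against EaHy from 9 to 5 without U937 replicate 2.

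**Figure D2:**
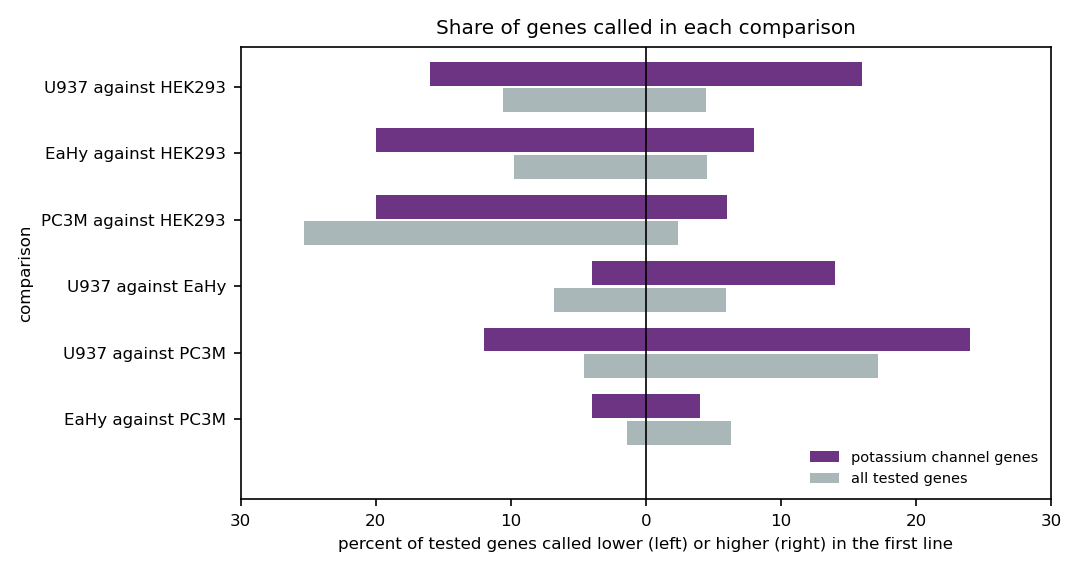
Percent of tested genes called lower (left) or higher (right) in the first-named line of each comparison, for the 50 tested potassium channel genes (purple) and all 16295 tested genes (grey). In PC3M against HEK293 25.3% of all tested genes and 10 of 50 channel genes were lower.

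Calcium-activated channels were shared unevenly among the lines. KCNMA1, the pore of the BK channel, was the highest channel gene of both EaHy and PC3M. It stood at 26.4 and 9.25 FPKM for EaHy, 23.2 and 5.10 for PC3M, 1.30 and 0.1 for U937, and 1.45 and 0.497 for HEK293. All 4 libraries of EaHy and PC3M lay above all 4 of U937 and HEK293. On the log2 scale KCNMA1 was higher than in HEK293 by 3.54 ± 0.92 (SE, n = 2 libraries per line) in EaHy and 3.04 ± 0.92 in PC3M (limma adjusted p = 0.037 and 0.043), and U937 was lower than EaHy and PC3M at -3.96 ± 0.92 and -3.47 ± 0.92 (adjusted p = 0.025 and 0.034). U937 and HEK293 differed by -0.43 ± 0.92 (adjusted p = 0.91). The EaHy call was lost without EaHy replicate 1, HEK293 replicate 1 or 2, or U937 replicate 1 or 2 (adjusted p = 0.12, 0.11, 0.25, 0.051 and 0.051), and the PC3M call without any 1 of the libraries of PC3M, HEK293 or U937 (0.057 to 0.24 over the alternatives that lost it), while the log2 differences stayed between 2.80 and 4.27 for EaHy and between 2.00 and 4.42 for PC3M. The difference of U937 from EaHy was lost without U937 replicate 1 or 2 or EaHy replicate 1 (adjusted p = 0.052, 0.19 and 0.089), and that from PC3M without U937 replicate 1 or 2, PC3M replicate 1 or either HEK293 library (0.061 to 0.18).

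Of the beta subunits, which tune how BK channels respond to calcium, KCNMB1 and KCNMB3 were highest in U937. KCNMB1 was listed at 3.20 and 4.40 FPKM for U937, 0.121 and 0.0553 for EaHy, and at 0 in both libraries of PC3M and of HEK293. It was higher in U937 than in EaHy by 2.86 ± 0.34 (limma adjusted p = 0.0012), and its calls against PC3M and HEK293 (adjusted p = 0.0012 and 0.001) are given without a fold since those lines were listed at 0. The pore gene KCNMA1 was at 1.30 and 0.1 FPKM in the same U937 libraries. KCNMB1 shares its locus with KCNIP1 on the opposite strand, which was at 0.191 and 0 FPKM in U937. KCNMB3 stood at 6.62 and 3.97 FPKM for U937, 2.34 and 0.371 for EaHy, 0.364 and 0.178 for PC3M, and 2.28 and 1.99 for HEK293, and U937 was higher than PC3M by 2.88 ± 0.64 (adjusted p = 0.019), a call lost without U937 replicate 1 or 2 or PC3M replicate 2 (0.1, 0.066 and 0.087). It overlaps PIK3CA on the opposite strand, which was at 2.42 to 6.4 FPKM, and strand use in counting is not given in the sources used here. KCNMB4 was listed at 0.116 and 14.0 FPKM in the PC3M libraries and at 2.79 and 3.49 in HEK293. Its PC3M replicates lay above and below every other library. Its log2 difference of -0.28 ± 1.23 from HEK293 (limma adjusted p = 0.89) was 2.00 without PC3M replicate 1 (0.038) and -2.56 without PC3M replicate 2 (0.056).

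KCNN4, whose channel opens through bound calmodulin, was low in HEK293 and high in most libraries of the binding lines. It was at 3.62 and 11.1 FPKM for U937, 4.54 and 4.98 for EaHy, 4.59 and 0.462 for PC3M, and 0.0666 and 0.0357 for HEK293, so no library of the binding lines overlapped HEK293. Its log2 difference from HEK293 was 3.65 ± 0.84 in U937 (limma adjusted p = 0.02), 3.25 ± 0.84 in EaHy (adjusted p = 0.035) and 2.01 ± 0.84 in PC3M (adjusted p = 0.1). The PC3M difference passed with a pseudocount of 0.1 (3.43, adjusted p = 0.047), with upper-quartile scaling (2.61, 0.029) and with quantile normalization (2.88, 0.021), within a range of 0.021 to 0.37 over its alternatives. The EaHy call was lost in 8 of 18 alternatives, including without either EaHy or either HEK293 library (adjusted p = 0.070 to 0.19), and the U937 call without U937 replicate 2 or either HEK293 library (0.14, 0.11 and 0.13). Among the small-conductance channels, KCNN2 was at 9.31 and 10.7 FPKM for U937, 5.86 and 3.8 for EaHy, 1.25 and 0.868 for HEK293, and listed at 0 in both PC3M libraries. It was higher in U937 than in HEK293 by 2.76 ± 0.49 (adjusted p = 0.0065), a call lost without U937 replicate 2 or either HEK293 library (0.055, 0.061 and 0.1), and in EaHy by 1.76 ± 0.49 (adjusted p = 0.049), lost in 11 of 18 alternatives, including without any 1 of the U937, EaHy or HEK293 libraries (0.065 to 0.39). PC3M was lower than U937 and EaHy (adjusted p = 0.0012 and 0.0054) and than HEK293 (0.042), the last lost in 10 of 17 alternatives. KCNN1, another small-conductance channel, was highest in HEK293, with 1.26 and 1.66 FPKM in HEK293 and at most 0.175 in the other 6 libraries. Its differences in U937, EaHy and PC3M were -1.78, -1.66 and -1.88 (SE 0.32, limma adjusted p = 0.0073, 0.011 and 0.0078). All 3 were lost without HEK293 replicate 2 and with quantile normalization (-0.93, -0.70 and -0.78), and the PC3M call also without PC3M replicate 2. The EaHy call was lost in 5 of 18 alternatives, among them the fit without the 3 libraries that stood apart. KCNN3 was present in EaHy alone, at 1.13 and 0.775 FPKM, and passed no comparison. KCNT2 was at 2.82 and 2.63 FPKM in HEK293 and at most 0.0556 in the other libraries. Its differences from HEK293 were -2.62, -2.58 and -2.69 for U937, EaHy and PC3M (SE 0.32, limma adjusted p = 0.0013, 0.0016 and 0.0019), and these calls held under every alternative run.

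**Figure D3:**
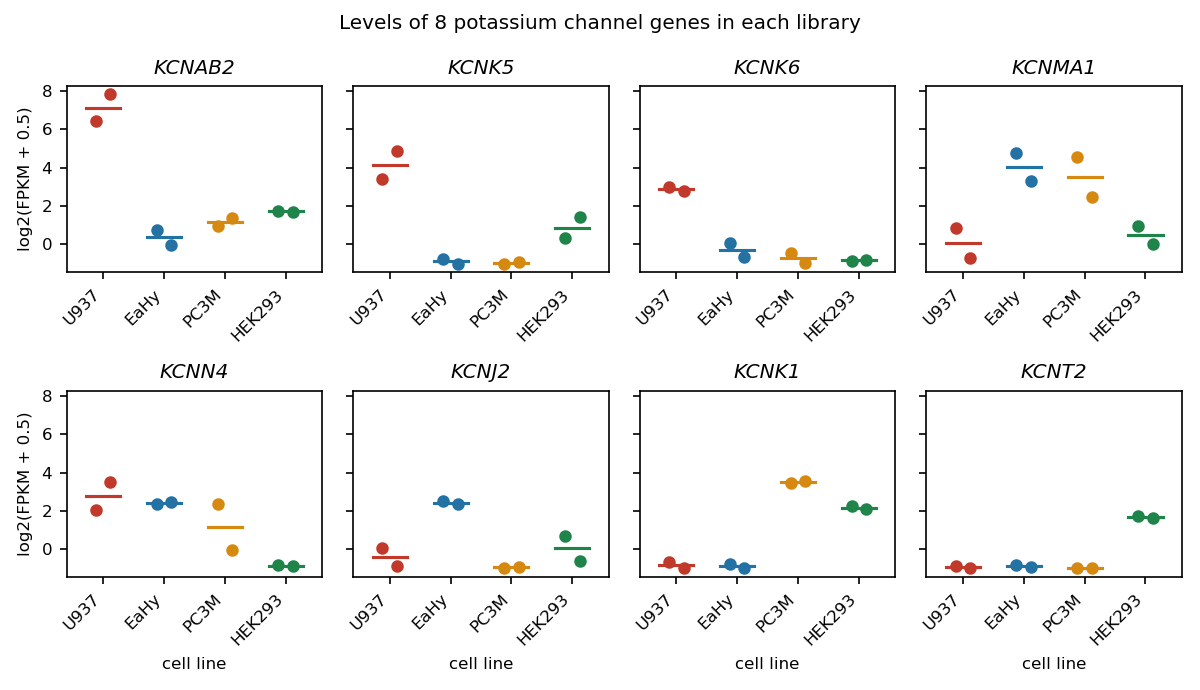
Level of 8 channel genes, as log2(FPKM + 0.5), in each library (points) with the mean of the 2 libraries (bar), by cell line (horizontal axis). KCNAB2, KCNK5 and KCNK6 are highest in U937, KCNMA1 in EaHy and PC3M, KCNJ2 in EaHy, KCNK1 in PC3M and HEK293, and KCNT2 in HEK293, while KCNN4 is lowest in HEK293.

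Of the voltage-gated pore genes, KCNH2, KCNC1 and KCNB2 were highest in HEK293. KCNH2, the hERG channel of cardiac repolarisation, was at 2.77 and 1.60 FPKM for HEK293, 0.605 and 0.146 for U937, 0.445 and 0.136 for EaHy, and 0 and 0.00196 for PC3M. Its PC3M difference was -2.39 ± 0.44 (limma adjusted p = 0.01), lost without PC3M replicate 2 or HEK293 replicate 1 (0.066 in both). The U937 and EaHy differences were -1.63 and -1.76 (adjusted p = 0.04 and 0.032). These calls were lost in 13 of 18 and 11 of 18 alternatives. Both were lost with upper-quartile scaling (0.11 and 0.096), with quantile normalization and without either HEK293 library. KCNC1 was at 0.739 and 1.74 FPKM in HEK293 and at most 0.232 elsewhere. Its calls in EaHy and PC3M (-1.5 and -1.43, adjusted p = 0.0496 and 0.04) were lost in 15 of 17 and 13 of 16 alternatives, including without either HEK293 library, and the PC3M value turned to 0.10 with quantile normalization. SERGEF, which overlaps KCNC1 on the opposite strand, was at 15.6 and 18.6 FPKM in HEK293 and 0.722 to 8.52 elsewhere, and its part in the KCNC1 values was not tested. KCNB2, another neuronal pore subunit, was at 1.18 and 1.64 FPKM in HEK293 and listed at 0 in both PC3M libraries. Its PC3M call against HEK293 (adjusted p = 0.027) was lost with either scaling and without any 1 library of PC3M or HEK293 (0.057 to 0.15).

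Other voltage-gated genes were highest in U937. KCNA3, which sets the membrane potential of lymphocytes and macrophages, stood at 12.6 and 3.35 FPKM for U937, 0.158 and 0 for EaHy, 0.0238 and 0.00187 for PC3M, and 0.345 and 0.0810 for HEK293. U937 was higher than HEK293, EaHy and PC3M by 3.34 ± 0.59, 3.63 ± 0.59 and 3.79 ± 0.59 (limma adjusted p = 0.006, 0.0047 and 0.0046). The HEK293 comparison missed the threshold without HEK293 replicate 2 (3.07, adjusted p = 0.06) and the EaHy comparison without the 3 libraries that stood apart (3.43, 0.065). KCNQ1, the slow delayed rectifier of heart and epithelia, was at 1.75 and 5.70 FPKM for U937, 1.24 and 0.711 for HEK293, 0.225 and 0 for EaHy, and 0 and 0.0560 for PC3M. It was higher in U937 than in EaHy by 2.63 ± 0.54 and than in PC3M by 2.82 ± 0.54 (adjusted p = 0.015 and 0.012), while its difference of 1.36 ± 0.54 from HEK293 did not pass (0.17). The EaHy call was lost without U937 replicate 2 or EaHy replicate 2 (1.90 and 2.36). It was also lost in the fit of the 2 lines alone and without the 3 libraries that stood apart. The PC3M call was lost without PC3M replicate 2 (2.90). KCNQ1OT1, an antisense RNA at the same locus, was at 6.17 and 0.936 FPKM in U937 and 6.53 and 0.251 in EaHy. It was at 0.260 and 0.108 FPKM in PC3M and 5.22 and 1.45 in HEK293. Reads of the 2 genes may not be separable, and the part of KCNQ1OT1 in the KCNQ1 values was not tested. KCND1 was at 2.45 and 1.37 FPKM for U937 and 0 and 0.0282 for PC3M (adjusted p = 0.027), a call lost without either U937 or either PC3M library (0.062 to 0.12).

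Among the voltage-gated genes that passed no comparison, KCNC4 was at 1.26 to 4.65 FPKM in all 8 libraries, with log2 differences between -0.81 and 0.94 in the 6 comparisons (lowest adjusted p = 0.28). KCNQ5, a subunit of M-current channels, was at 0.276 to 5.61 FPKM (lowest adjusted p = 0.094). Silent subunits form no channel alone and modify other voltage-gated subunits, and of 3 tested none passed. KCNG1 was at 5.13 and 10.1 FPKM for HEK293, 13.3 and 1.87 for PC3M, 4.34 and 2.27 for EaHy, and 2.00 and 1.31 for U937. The 2 PC3M values lay above and below those of EaHy and HEK293. KCNG2 was at 0.871 and 0.754 FPKM for U937, 1.36 and 0.126 for EaHy, and listed at 0 in both PC3M libraries. KCNG3 was at 0.699 and 0.927 FPKM for HEK293 and 1.99 and 0.460 for PC3M.

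Of the 5 inward rectifiers that passed the F test, KCNJ2 was highest in EaHy, KCNJ18 in PC3M, and KCNJ4, KCNJ8 and KCNJ12 in HEK293. KCNJ2, the classical strong inward rectifier of endothelium and muscle, was at 5.15 and 4.63 FPKM for EaHy, 1.11 and 0.162 for HEK293, 0.545 and 0.0361 for U937, and 0.0144 and 0.0227 for PC3M. Both EaHy libraries lay above all others. EaHy was higher than HEK293 by 2.38 ± 0.54, and than PC3M by 3.38 ± 0.54, while U937 was lower than EaHy at -2.85 ± 0.54 (limma adjusted p = 0.021, 0.0086 and 0.01). The HEK293 comparison was lost without HEK293 replicate 2 (1.74), with a pseudocount of 0.1 and in the fit of the 2 lines alone. The PC3M comparison was lost without PC3M replicate 2 (3.39) and in the fit of the 2 lines alone. The U937 comparison was lost without U937 replicate 2 (-2.37). Without the 3 libraries that stood apart, the HEK293 and U937 comparisons were also lost. The antisense gene KCNJ2-AS1 stood at 2.08 and 0.537 FPKM in EaHy.

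Its close relatives had other profiles. KCNJ4 and KCNJ12, which encode further strong inward rectifiers, were at 3.99 and 2.42 and at 2.65 and 3.29 FPKM in HEK293. In U937 they were at 0.203 and 0, and at 0.0901 and 0.00704, with differences from HEK293 of -2.61 ± 0.43 and -2.66 ± 0.43 (limma adjusted p = 0.0045 and 0.0041). KCNJ4 was also lower in PC3M (-2.76 ± 0.43, adjusted p = 0.0052), while KCNJ12 stood at 1.78 and 0.802 FPKM there and did not pass against HEK293 (-1.0 ± 0.43, adjusted p = 0.11). In EaHy KCNJ12 was at -2.63 ± 0.43 against HEK293 (0.0051), which held under every alternative run, and KCNJ4 at -1.70 ± 0.43 (0.033), lost in 13 of 18. KCNJ12 was also lower in U937 than in PC3M (-1.66 ± 0.43, adjusted p = 0.031), a call lost without U937 replicate 1 or 2, PC3M replicate 1 or either HEK293 library (0.058 to 0.15). KCNJ18 was at 2.22 and 1.15 FPKM for PC3M, 1.16 and 0.207 for HEK293, and at most 0.0377 in U937 and EaHy. U937 and EaHy were lower than PC3M at -2.07 and -2.02 (SE 0.48, limma adjusted p = 0.022 and 0.039). Both calls were lost without any 1 library of the lines compared. The EaHy call was lost in 9 of 17 alternatives, among them the fit of the 2 lines alone and leaving out either U937 library. KCNJ12 and KCNJ18 are nearly identical in sequence, so how their reads were shared between them is uncertain.

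The pore subunits of ATP-sensitive channels, which close when cellular ATP is high, were highest in HEK293. KCNJ8 was at 5.37 and 5.28 FPKM for HEK293, 1.27 and 0.323 for PC3M, 0.0981 and 0 for U937, and 0.0494 and 0 for EaHy, with no overlap between HEK293 and the other libraries. Differences from HEK293 were -3.41 ± 0.46 for U937 and -3.47 ± 0.46 for EaHy (limma adjusted p = 0.002 and 0.0021), calls that held under every alternative run, and -2.27 ± 0.46 for PC3M (0.014), lost without PC3M replicate 2 (-1.72, adjusted p = 0.07), without HEK293 replicate 1 or 2 (0.071 and 0.08) and with quantile normalization (-0.72, 0.15). KCNJ11 was at 3.03 and 5.27 FPKM in HEK293 and at 0.118 to 1.16 in the other 6 libraries. Its calls in EaHy and PC3M (-2.24 and -2.29, adjusted p = 0.043 and 0.03) were lost in 12 of 18 and 10 of 17 alternatives, including either scaling and without any 1 of the U937 or HEK293 libraries. Of the sulfonylurea receptors, which join these pores, ABCC8 was at 1.16 and 0.647 FPKM in HEK293 and at most 0.110 elsewhere. It was lower in each of the 3 lines (limma adjusted p = 0.024, 0.027 and 0.026). The EaHy and PC3M calls of ABCC8 were lost with quantile normalization and without HEK293 replicate 2, and the U937 call without U937 replicate 2. ABCC9 was at 0.347 to 10.4 FPKM and passed no comparison. KCNJ5, a channel gated by G protein beta-gamma subunits, was at 1.65 and 1.28 FPKM for U937, 1.12 and 0.502 for EaHy, 0 and 0.360 for PC3M, and 0.642 and 1.06 for HEK293. Its call in U937 against PC3M (1.58 ± 0.47, adjusted p = 0.046) was lost in 13 of 17 alternatives. C11orf45, on the opposite strand of KCNJ5, was at 6.06 and 4.14 FPKM for U937 and 0.436 and 0.0701 for PC3M.

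Of the 4 two-pore genes that passed the F test, KCNK5 and KCNK6 were highest in U937 and KCNK1 and KCNK10 in PC3M. KCNK5, an acid-sensitive leak channel, was at 9.98 and 28.7 FPKM for U937, 0.739 and 2.21 for HEK293, 0.0985 and 0 for EaHy, and 0 and 0.0375 for PC3M. KCNK6, another leak channel, was at 7.41 and 6.34 FPKM for U937, 0.566 and 0.123 for EaHy, 0.244 and 0.0120 for PC3M, and 0.0567 and 0.0630 for HEK293. For both genes all U937 libraries lay above all others. U937 was higher than HEK293, EaHy and PC3M by 3.26, 5.00 and 5.08 for KCNK5 (SE 0.62, limma adjusted p = 0.009, 0.0015 and 0.0018) and by 3.72, 3.17 and 3.57 for KCNK6 (SE 0.44, adjusted p = 0.0012, 0.0023 and 0.0018). The KCNK6 calls held under every alternative run, and the KCNK5 calls too except against HEK293 without HEK293 replicate 1 (2.69, adjusted p = 0.098).

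In PC3M the leading two-pore gene was KCNK1, a weakly rectifying leak channel. It was at 10.4 and 11.2 FPKM for PC3M, 4.31 and 3.71 for HEK293, 0.131 and 0 for U937, and 0.0808 and 0 for EaHy, so that PC3M and HEK293 stood far above the other lines. Against HEK293, U937 and EaHy were at -3.00 ± 0.45 and -3.06 ± 0.45 (limma adjusted p = 0.0029 and 0.0032), and against PC3M at -4.33 ± 0.45 and -4.39 ± 0.45 (0.00084 and 0.0012). These held under every alternative run, except EaHy against PC3M in the fit of those 2 lines alone (0.18). PC3M exceeded HEK293 by 1.33 ± 0.45, which did not pass on the values as deposited (adjusted p = 0.057) and passed with upper-quartile scaling (2.64, 0.024) and quantile normalization (2.74, 0.01), within 0.01 to 0.3 over the alternatives. KCNK9, another acid-sensitive leak channel, was at 5.52 and 0.640 FPKM for PC3M and at most 0.250 elsewhere, and KCNK10, a mechanosensitive one, at 0.646 and 1.16 for PC3M and at most 0.174 elsewhere. Their PC3M differences from HEK293 of 2.34 ± 0.68 and 1.31 ± 0.35 (adjusted p = 0.039 and 0.03) were lost without either HEK293 library (0.14 and 0.16 for KCNK9, 0.11 and 0.17 for KCNK10). The KCNK9 difference was also lost without either U937 library (0.063 and 0.06) and was 1.14 without PC3M replicate 1 (0.067), and that of KCNK10 was 1.05 without PC3M replicate 2 (0.17). U937 was lower than PC3M for KCNK9 and KCNK10 at -2.29 ± 0.68 and -1.21 ± 0.35 (adjusted p = 0.047 and 0.042), and both calls were lost in 9 of 16 alternatives, including without any 1 of the U937 or HEK293 libraries.

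Accessory subunits held the highest value of any channel gene. KCNAB2, a cytoplasmic beta subunit with an aldo-keto reductase fold that binds KCNA channels, was at 87.4 and 226 FPKM for U937, 1.21 and 0.476 for EaHy, 1.42 and 2.14 for PC3M, and 2.86 and 2.76 for HEK293. U937 exceeded HEK293, EaHy and PC3M by 5.42, 6.77 and 5.97 (SE 0.66, limma adjusted p = 0.0014, 0.00058 and 0.0012), and these calls held under every alternative run. NPHP4, which overlaps it on the opposite strand, was at 1.64 to 5.15 FPKM in the 8 libraries. KCNE3, which keeps KCNQ1 channels open, was at 3.13 and 4.99 FPKM for U937, 0.693 and 0.131 for EaHy, 0 and 0.115 for PC3M, and 0.418 and 0.573 for HEK293. It was higher in U937 by 2.17, 2.36 and 3.01 (SE 0.46, adjusted p = 0.015, 0.012 and 0.0046). The HEK293 call was lost with a pseudocount of 0.1 and without U937 replicate 2 or HEK293 replicate 1 or 2. The EaHy call was lost without U937 replicate 2, in the fit of the 2 lines alone and without the 3 libraries that stood apart. KCNE2 was at 0.592 and 0.492 FPKM in U937, listed at 0 in both PC3M libraries, and its call there (adjusted p = 0.049) was lost in 11 of 16 alternatives. KCNIP2, a calcium-binding partner of KCND channels, was at 2.51 and 0.564 FPKM in U937 and passed no comparison.

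Altogether 6 of the 50 tested channel genes were higher in U937 than in each of the other 3 lines, as were 2.97% of all 16295 tested genes. They were KCNA3, KCNAB2, KCNE3, KCNK5, KCNK6 and KCNMB1. Of these, KCNA3, KCNK6 and KCNMB1 reached the limit for testing only through their U937 libraries. The count therefore describes these genes and supports nothing further. Of the 6, 4 have a single listed start in the RefSeq promoter table, which matched 70 of the 94 channel genes, and the 250 bases before those starts are shown as examples of these genes. The genes and the motif were chosen after their values were seen. Capitals mark GAGGAA or its reverse complement TTCCTC, core letters of sites bound by PU.1, the blood transcription factor encoded by SPI1, whose own level was 51.0 and 143 FPKM for U937 and at most 2.74 elsewhere. The windows, on build GRCh38.p14, are chr19:38319595-38319844 on the plus strand for KCNK6, chr5:170389368-170389617 on the minus strand for KCNMB1, chr6:39229476-39229725 on the minus strand for KCNK5 and chr11:74467550-74467799 on the minus strand for KCNE3.
KCNK6: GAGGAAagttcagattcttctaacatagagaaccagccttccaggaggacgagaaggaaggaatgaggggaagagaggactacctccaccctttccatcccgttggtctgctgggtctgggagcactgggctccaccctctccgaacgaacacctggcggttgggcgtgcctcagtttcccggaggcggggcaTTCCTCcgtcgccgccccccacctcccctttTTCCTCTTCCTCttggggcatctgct
KCNMB1: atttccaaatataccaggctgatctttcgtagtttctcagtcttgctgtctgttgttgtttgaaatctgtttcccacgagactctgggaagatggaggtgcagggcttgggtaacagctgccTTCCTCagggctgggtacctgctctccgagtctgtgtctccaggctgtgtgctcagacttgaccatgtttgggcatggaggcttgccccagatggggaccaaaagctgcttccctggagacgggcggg
KCNK5: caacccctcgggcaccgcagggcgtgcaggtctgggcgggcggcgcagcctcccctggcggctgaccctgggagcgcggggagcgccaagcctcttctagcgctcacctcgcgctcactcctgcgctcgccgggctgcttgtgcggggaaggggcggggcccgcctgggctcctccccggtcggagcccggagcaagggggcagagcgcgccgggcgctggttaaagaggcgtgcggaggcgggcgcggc
KCNE3: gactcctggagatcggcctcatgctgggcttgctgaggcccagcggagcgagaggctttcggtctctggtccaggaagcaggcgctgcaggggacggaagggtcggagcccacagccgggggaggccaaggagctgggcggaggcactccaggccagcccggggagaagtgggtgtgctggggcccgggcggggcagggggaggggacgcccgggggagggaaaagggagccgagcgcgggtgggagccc
On either strand the letters occurred 4 times before KCNK6 and 1 time before KCNMB1, and not in the windows of KCNK5 and KCNE3. Of the 2 genes with several listed starts, KCNAB2 had them in 0 of 4 windows and KCNA3 in 2 of 3. The most upstream KCNA3 window, chr1:110674941-110675190 on the minus strand, had 0. The 2 with the letters lie downstream of it. That at chr1:110673455-110673704 translates through GYG, the pore signature of potassium channels, and so is coding sequence. The other may also fall inside the gene, so it may not describe its promoter. With these 2 windows counted, 4 of 11 windows of the 6 genes held the letters. Windows of the same length before 35116 listed starts held them in 23.6%. A match of 6 letters describes the window and was not tested as a binding site.

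The 44 channel genes that were not tested were low. Of them, 35 had no library at 0.5 FPKM and 9 had 1 such library, and their highest value was 1.94 FPKM, for KCNJ1, the renal outer medullary channel, in U937 replicate 1. The other 8 with a single library were KCNA6, KCNE1, KCNJ13 and KCNK12 in U937 replicate 1, KCNK3 in EaHy replicate 1, KCNF1 in PC3M replicate 1, KCNK13 in PC3M replicate 2 and KCNS3 in HEK293 replicate 1. None of the 94 was listed at 0 in all 8 libraries.

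Genes that work with the channels were examined in 3 further lists. Of 22 potassium pumps and cotransporters 13 were tested: 1 was lower in U937 than in HEK293, 1 was higher and 3 lower in EaHy, and 7 were lower in PC3M. FXYD6, a regulator of the sodium pump, was lower in all 3 lines at -3.43 ± 0.38, -3.73 ± 0.38 and -4.12 ± 0.38 (limma adjusted p = 0.001, 0.00095 and 0.0012), and ATP1B1, a beta subunit of the pump, was lower in PC3M than in HEK293 at -2.44 ± 0.67 and higher in EaHy than in PC3M by 3.16 ± 0.67 (adjusted p = 0.033 and 0.027). Of 17 channel partners outside the KCN symbols 11 were tested, and 4, 3 and 4 were lower in U937, EaHy and PC3M than in HEK293 with 0 higher. Of all tested genes, 10.6%, 9.8% and 25.3% were lower and 4.47%, 4.55% and 2.39% higher in these 3 comparisons. HCN3, a pacemaker channel, was at -2.30 ± 0.50 for U937 and -2.33 ± 0.50 for EaHy against HEK293 (limma adjusted p = 0.016 and 0.017). Of 16 genes of calcium entry and release 15 were tested, with 2 lower in U937, 1 higher and 1 lower in EaHy, and 5 lower in PC3M. STIM1, the calcium sensor of the endoplasmic reticulum, was at 2.34 and 0.493 FPKM in PC3M and at 8.69 to 15.7 in the other libraries (-2.96 ± 0.68 against HEK293, adjusted p = 0.02). The medians of the 3 lists in PC3M against HEK293 were -2.27, -1.49 and -1.39, beside -1.26 for all tested genes. Over the alternatives, lower calls in PC3M ranged from 1 to 9, from 0 to 6 and from 0 to 7 in the 3 lists. In U937 against HEK293 they ranged from 1 to 3, from 0 to 5 and from 0 to 2. In EaHy against HEK293 the ranges were 1 to 4, 0 to 4 and 0 to 2.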

How the data were processed

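Total RNA of 8 libraries, 2 for each of 4 cell lines, was depleted of ribosomal RNA and sequenced. The submitters' processing notes name cutadapt (a read trimmer), TopHat2 2.0.11 (an aligner), Cufflinks 2.2.1 (a quantifier) and the build hg19, and the authors deposited FPKM per gene symbol, with 1 column per library. The gene annotation, strand setting and any further normalization are not given in the sources used here. No counts were used, so the depth is unknown and no counting intervals are given.

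The test took genes that reached 0.5 FPKM in 2 or more libraries, 16295 of 23615 and 50 of 94 channel genes. In R 4.3.3, limma 3.58.1 fitted log2(FPKM + 0.5) with 1 term per line and a variance prior that follows expression. Fold changes on this scale understate changes of low genes. The 6 pairs of lines and an F test were adjusted by the Benjamini-Hochberg method over all tested genes, two-sided, and called at an adjusted p under 0.05.

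Channel genes were named when called, when among the 5 highest of a line or the 3 highest tested of a class, or from a preset 5, which gave 36; the others were named after their values were seen. The members, lists and tests were chosen with earlier results of these data known. Alternatives were other pseudocounts, filters, scalings and priors, a replicate block, fits of 2 lines, and leaving out libraries, where the single library left of a line takes its spread from the rest. The procedure was tested on simulated data. Promoter windows come from RefSeq, and overlapping genes from GENCODE, of another build than the values. Counts are over all members, of which some are not reported here by name.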

Additional observations from a re-analysis of the deposited data

How the results depend on the processing

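Of 74 calls of a channel gene in a comparison, 29 held under every alternative run and 45 were lost in at least 1, of which 8 only when libraries were left out. Calls that held numbered 9, 5 and 3 in U937, EaHy and PC3M against HEK293, 4 and 8 in U937 against EaHy and PC3M, and 0 in EaHy against PC3M, where the fit of the 2 lines alone called 0 channel genes with limma, 7 being at an unadjusted p under 0.05. The number called in EaHy against HEK293, 14 as reported, was 8 with no filter or a pseudocount of 0.1, 9 with a single prior spread, and 7 with only the 2 lines or without EaHy replicate 2 and both PC3M libraries. In PC3M against HEK293, 13 became 20 with only the 2 lines. In U937 against EaHy, 9 became 5 without EaHy replicate 2 and both PC3M libraries. In EaHy against PC3M, 4 became 8 with upper-quartile scaling and 10 with quantile normalization. Leaving out 1 library gave 10 to 18, 5 to 13 and 4 to 18 calls in U937, EaHy and PC3M against HEK293, 5 to 12 and 9 to 23 in U937 against EaHy and PC3M, 3 to 6 in EaHy against PC3M and 17 to 32 in the F test. Replicate numbers were not taken as pairs. The correlation of their deviations between lines ran from -0.15 to 0.33, the highest being that of U937 with HEK293. Whether these lines shared an effect of replicate number was not tested. The replicate block gave 16, 11, 11, 9, 15 and 4 calls in the comparisons as ordered in the report, and 21 in the F test. It ended 8 of the 74 calls, among them KCNN2 and KCNN4 in EaHy against HEK293 (adjusted p = 0.064 and 0.054). With a limit of 0.1 FPKM, 34, 26, 22 and 47 channel genes were present in U937, EaHy, PC3M and HEK293; with 1 FPKM, 6 were present in EaHy and 17 in HEK293; with either library enough, 39, 33 and 19 in U937, EaHy and PC3M. The log2 difference of KCNMA1 between U937 and HEK293, which did not pass, turned to 0.24 with quantile normalization, and 0.06 without HEK293 replicate 1, and ran from -1.22 to 0.36 when 1 library was left out, the ends being U937 replicates 1 and 2. That of KCNMB4 between PC3M and HEK293 turned to 0.97 with upper-quartile scaling, 1.37 with quantile normalization, and ran from -2.56 to 2.00 without PC3M replicate 2 or 1, and that of KCNC1 to 0.10 with quantile normalization. The causes of these shifts were not tested. With 2 libraries a line, fits on a lone library have larger standard errors.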
